A study of Mus musculus with 9 samples.

Results

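The levels of 10 genes that build elastic fibres were followed, of 22911 genes with a symbol on the array: Eln, Fbn1, Lox, Loxl1, Loxl2, Fbln1, Fbln2, Fbln5, Mfap4 and Mfap5. They were chosen by name, and their probes were those that carried a RefSeq accession of the gene, which gave 14 probes, 2 for each of Eln, Fbn1, Lox and Loxl2 and 1 for each of the other 6 genes. All 14 probes were well above background on all 9 arrays and all passed the filter on dim probes. The arrays were single-colour Agilent arrays of whole-lung RNA from male C57BL/6J mice, which were 12 weeks old at the start and for 6 months breathed 3.5% aerosol of IQOS (a heated tobacco product), 3.5% cigarette smoke (CS) or fresh air, with 3 arrays a group. In whole lung, fewer cells of a type and less RNA per cell cannot be told apart. The labels do not say whether the arrays of a group came from different mice. The p-values therefore cover the spread between these samples, which may be technical.

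Elastic fibres are the stretchable cables of the lung wall. They form when soluble tropoelastin, the product of Eln, is laid onto a scaffold of fibrillin microfibrils, is tethered there by fibulins and is joined into an insoluble polymer by copper-dependent lysyl oxidases. They give alveoli and airways their recoil, most of them are laid down while the lung grows, and their breakdown is a defining feature of emphysema.

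Levels below are signals divided by the 75th percentile of the same array, and changes are log2 differences ± standard error from limma, with a call where p, adjusted by Benjamini-Hochberg over 37258 probes, was under 0.05 (n = 3 arrays a group). A gene was represented by its brighter probe. The levels of different probes cannot be set against each other. The share of probes well above background ranged from 64.3% to 68.8% over the arrays, and the 6 alveolar type II cell markers, which define lung tissue, were so on all 9 arrays. The IQOS arrays lay on a slide with no other array of this series, so the effects of that slide and of IQOS cannot be told apart. The CS and air arrays shared 1 slide. On the slides, all IQOS arrays lay in array row 1 and all CS arrays in row 2, with air 3 as the only air array in row 2. CS 3 stood at the low end of its group. Its level was the lowest among CS arrays for 9 of the 10 genes, the exception being Lox. The CS minus air changes of Eln, Fbn1 and Loxl1 are therefore also given without CS 3, and calls that ended without it are named.

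RefSeq promoter windows (250 bases before to 50 after the gene start, build GRCm38.p6) were at hand for 4 of the 10 genes. Those of 3 are shown, so that the 1 called gene with a window, Fbn1, can be read beside 2 genes without a call: Fbln2, with the widest spread of the 10, and Fbln5, with the smallest CS minus air difference of the 3 fibulins. Capitals mark matches on either strand to any of 7 motifs: TATAAA (the core box of many promoters), GGGCGG (the GC box), GCGTG (core of aryl hydrocarbon receptor sites), TGANTCA (AP-1), TGACNNNGC (core of antioxidant elements), GTCTAGAC (a paired SMAD site) and CATTCC (MCAT element).
Fbn1, chr2:125506389-125506688, minus strand: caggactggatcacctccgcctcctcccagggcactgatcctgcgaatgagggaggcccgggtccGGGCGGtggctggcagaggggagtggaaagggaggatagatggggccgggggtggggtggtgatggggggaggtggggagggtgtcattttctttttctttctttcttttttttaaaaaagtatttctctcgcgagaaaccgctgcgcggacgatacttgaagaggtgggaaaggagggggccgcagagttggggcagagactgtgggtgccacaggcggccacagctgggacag
Fbln2, chr6:91212514-91212813, plus strand: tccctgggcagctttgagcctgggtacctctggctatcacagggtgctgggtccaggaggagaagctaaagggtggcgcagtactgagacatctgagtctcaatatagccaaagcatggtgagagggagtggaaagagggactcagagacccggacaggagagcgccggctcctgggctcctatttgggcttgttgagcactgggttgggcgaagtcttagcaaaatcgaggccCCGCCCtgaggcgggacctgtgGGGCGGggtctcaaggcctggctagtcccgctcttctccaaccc
Fbln5, chr12:101819070-101819369, minus strand: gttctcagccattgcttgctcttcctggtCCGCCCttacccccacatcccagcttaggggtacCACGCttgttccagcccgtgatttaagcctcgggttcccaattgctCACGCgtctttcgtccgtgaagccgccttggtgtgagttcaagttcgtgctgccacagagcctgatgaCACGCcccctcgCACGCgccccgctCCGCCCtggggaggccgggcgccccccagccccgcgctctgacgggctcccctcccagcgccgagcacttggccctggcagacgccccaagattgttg

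The Fbn1 window held 1 GC box and the Fbln2 window 2, and neither held any of the other 6 motifs. The Fbln5 window held 2 GC boxes and 4 GCGTG cores. No 2 matches overlapped in these windows, although AP-1 and antioxidant letters can overlap elsewhere. Among all 32851 windows of this length, 35.7% held a GC box, 32.4% a GCGTG core, 14.7% CATTCC, 13.6% TATAAA, 12.4% the antioxidant core, 7.81% the AP-1 letters and 0.213% the SMAD pair. A match is a description of letters and not evidence of binding. The window of the other Fbln5 start held none of the motifs, so the matches above belong to only 1 of its starts. That window and those of Fbln1 are not shown.

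The first comparison asks what 6 months of smoke changed in these genes. In CS lungs 4 of the 10 genes fell relative to air and 0 rose: the elastin gene itself, the microfibril gene Fbn1, and the crosslinking enzyme genes Loxl1 and Loxl2. Over all 16593 genes tested, 6.12% were called lower in CS and 5.6% higher. The median change of the 10 genes was -0.43 on the log2 scale, against -0.02 over all genes. The levels of 5 genes lay entirely below the air levels in CS lungs, where 21% of all genes did so.

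**Figure D1:**
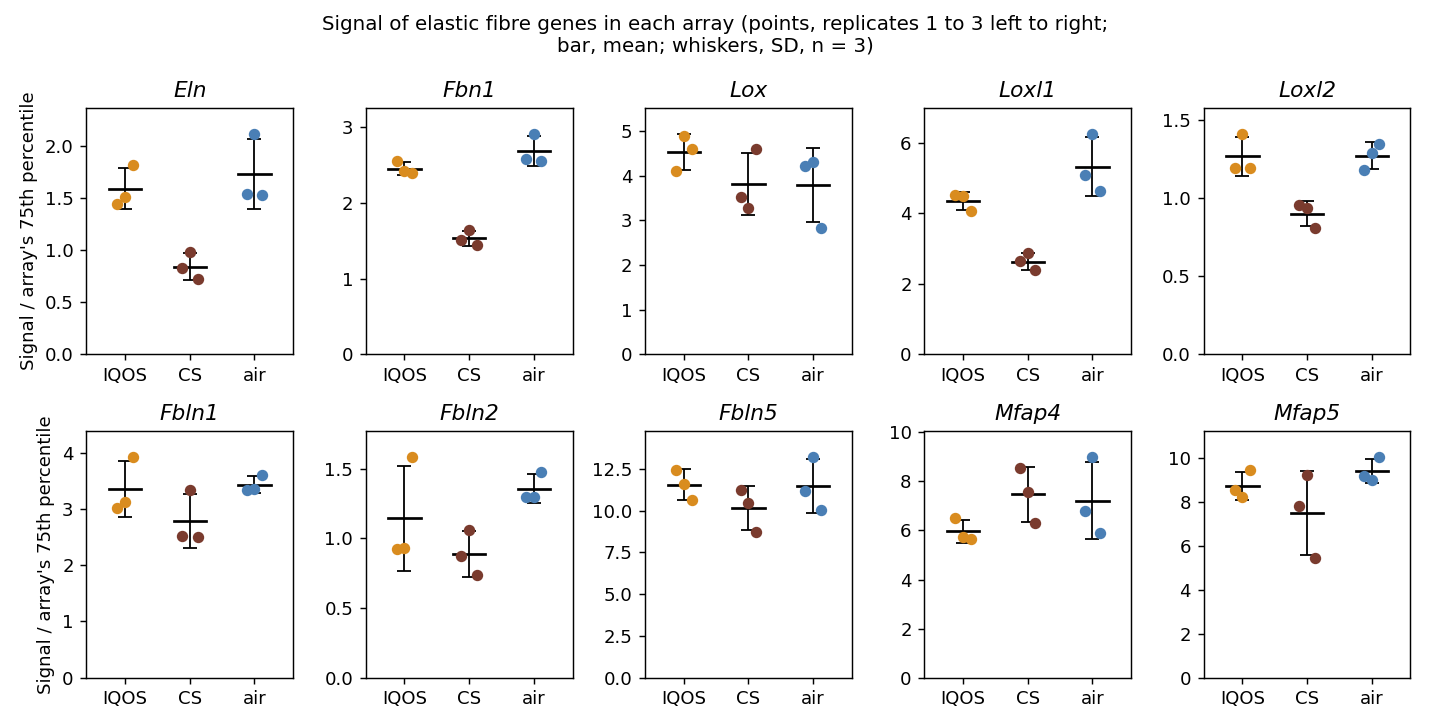
Signal of the brighter probe of each of the 10 genes, as a multiple of the 75th percentile of the array (vertical axis, linear, from 0), in the 3 IQOS, 3 CS and 3 air arrays. Points are arrays, bars means and whiskers SD (n = 3). Every CS array lies below every IQOS and air array for Eln, Fbn1, Loxl1 and Loxl2, and the groups of Lox, Fbln5 and Mfap4 overlap.

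Eln, which encodes tropoelastin, had levels of 1.45, 1.51 and 1.82 in IQOS 1 to 3, 0.83, 0.978 and 0.719 in CS 1 to 3, and 1.54, 2.12 and 1.53 in air 1 to 3. The CS arrays lay below all others, and the IQOS and air arrays overlapped. Eln fell by 51.1% in CS lungs relative to air (log2 -1.03 ± 0.17, adjusted p 0.013 in limma), with a 95% interval of -1.41 to -0.65. Leaving out each array in turn kept the call (adjusted p 0.0173 to 0.0418), and the change was -0.92 without CS 3. Its dimmer probe gave levels of 0.454, 0.561 and 0.505 in CS lungs against 0.647, 1.06 and 0.656 in air lungs, again without overlap, and a change of -0.60 ± 0.21 that did not pass (adjusted p 0.108).

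Fbn1 encodes the main fibrillin of adult microfibrils, the scaffold on which elastin is deposited. Its levels were 2.55, 2.42 and 2.39 in the IQOS arrays, 1.51, 1.64 and 1.44 in the CS arrays and 2.59, 2.91 and 2.56 in the air arrays. It had the smallest spread among arrays of a group of all 10 genes (pooled SD 0.09 on the log2 scale, against a median of 0.20 over the 10 and 0.12 over all genes) and the smallest p among them. Fbn1 fell by 43% in CS lungs (log2 -0.81 ± 0.08, adjusted p 0.00327 in limma). Its other probe fell too (-0.65 ± 0.12, adjusted p 0.0176), and the brighter probe stood at -0.77 without CS 3.

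The lysyl oxidases oxidise lysines of elastin and collagen so that the chains can be joined. Loxl1, the member of the family most closely tied to elastin deposition, had levels of 4.5, 4.47 and 4.06 in the IQOS arrays, 2.64, 2.86 and 2.39 in the CS arrays and 5.07, 6.24 and 4.64 in the air arrays. It fell by 50.3% in CS lungs relative to air (-1.01 ± 0.12, adjusted p 0.00552) and by 0.94 on the log2 scale without CS 3. Loxl2, which also acts on basement membrane collagen, had levels of 0.955, 0.937 and 0.809 in CS lungs against 1.18, 1.29 and 1.35 in air lungs, and fell by 29.3% (-0.50 ± 0.10, adjusted p 0.0232). Its dimmer probe fell by 0.42 (adjusted p 0.0497). The Loxl2 call ended without air 1, air 2, air 3, CS 2 or CS 3, each left out alone (adjusted p 0.0579 to 0.0667).

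Lox, the founding enzyme of the family, gave a different picture. Its levels in CS lungs were 3.53, 3.29 and 4.59, against 4.21, 4.32 and 2.83 in air lungs, and the groups overlapped. The change was 0.02 ± 0.19, with an interval of -0.41 to 0.45 (adjusted p 0.963), and the dimmer probe gave 0.18 ± 0.14 (adjusted p 0.458). CS 3, lowest in the other 9 genes, was the highest CS array for Lox. Lox turned negative without air 3 (-0.18) or without CS 3 (-0.13).

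No fibulin passed in CS lungs. Fbln2, whose protein lies at the border of elastin and microfibrils in vessel walls, had levels of 0.872, 1.06 and 0.736 in CS lungs against 1.3, 1.3 and 1.48 in air lungs. These did not overlap, yet the change of -0.62 ± 0.22 missed the threshold (adjusted p 0.11), and passed only when IQOS 3 was left out of the shared estimate of spread (adjusted p 0.038). Fbln1, a fibulin of elastic fibres and basement membranes, had levels of 2.52, 3.35 and 2.51 in CS lungs against 3.34, 3.37 and 3.61 in air lungs, so that only CS 2 reached the air range, and its estimate was -0.31 ± 0.14 (adjusted p 0.181). Fbln5, which binds elastin and integrins and is needed for elastic fibres in mice, overlapped between CS lungs (11.3, 10.5 and 8.74) and air lungs (11.2, 13.2 and 10.03), with an estimate of -0.17 ± 0.13 (interval -0.47 to 0.13, adjusted p 0.415).

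The microfibril-associated genes did not pass either. Mfap4, a fibrinogen-related partner of elastin and fibrillin, had an estimate of 0.06 ± 0.17 (adjusted p 0.839), with levels of 8.56, 7.57 and 6.32 in CS lungs and 6.78, 8.98 and 5.9 in air lungs. Mfap5, a small glycoprotein of microfibrils, had an estimate of -0.36 ± 0.17 (adjusted p 0.218), with 7.81, 9.23 and 5.46 in CS lungs and 9.18, 8.98 and 10.02 in air lungs. The difference was -0.14 without CS 3. Mfap4 turned to -0.07 without air 3 and to -0.04 without CS 1.

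The IQOS comparison with air called 0 of the 10 genes in limma, with 1 at an unadjusted p under 0.05, where 2.87% of all genes were called, 0.886% lower and 1.99% higher. The gene at the unadjusted threshold was Loxl1, at 4.06 to 4.5 in IQOS lungs and 4.64 to 6.24 in air lungs, without overlap (-0.28 ± 0.12, interval -0.56 to -0.01, adjusted p 0.221). By p it ranked 3198 among all 16593 genes tested, so an unadjusted p under 0.05 was common here. The brighter probe of Fbn1 was also lower on every IQOS array (-0.13 ± 0.08, adjusted p 0.371), narrowly, with 2.552 in IQOS 1 against 2.556 in air 3. Its other probe overlapped between the groups (-0.16 ± 0.12, adjusted p 0.475). The groups did not overlap, with IQOS lower, for 2 of the 10 genes, against 15.1% of all genes. With IQOS higher it was 0 of the 10, against 13% of all genes, although the dimmer Lox probe was higher on every IQOS array (0.33 ± 0.14, adjusted p 0.23). The interval for Eln ran from -0.49 to 0.27 around -0.11, that for Loxl2 from -0.24 to 0.22 and that for Fbn1 from -0.31 to 0.05, so falls of the sizes estimated for these 3 genes in CS lungs lie outside their intervals. For Fbln2 the interval ran from -0.80 to 0.22, around -0.29. Its levels in IQOS lungs were 0.927, 0.928 and 1.58, and IQOS 3 stood above all air arrays while the others stood below them. Loxl2 had levels of 1.19, 1.41 and 1.19 in IQOS lungs and Lox had 4.1, 4.9 and 4.6, and both overlapped the air levels given above. Fbln1 had 3.02, 3.13 and 3.92, Fbln5 had 12.5, 11.6 and 10.6, and Mfap5 had 8.52, 8.23 and 9.45. These too overlapped air, with estimates of -0.04 (adjusted p 0.886), 0.02 (adjusted p 0.957) and -0.11 (adjusted p 0.76). Mfap4 stood at -0.26 (adjusted p 0.411). This comparison and that of CS with air share the air arrays.

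**Figure D2:**
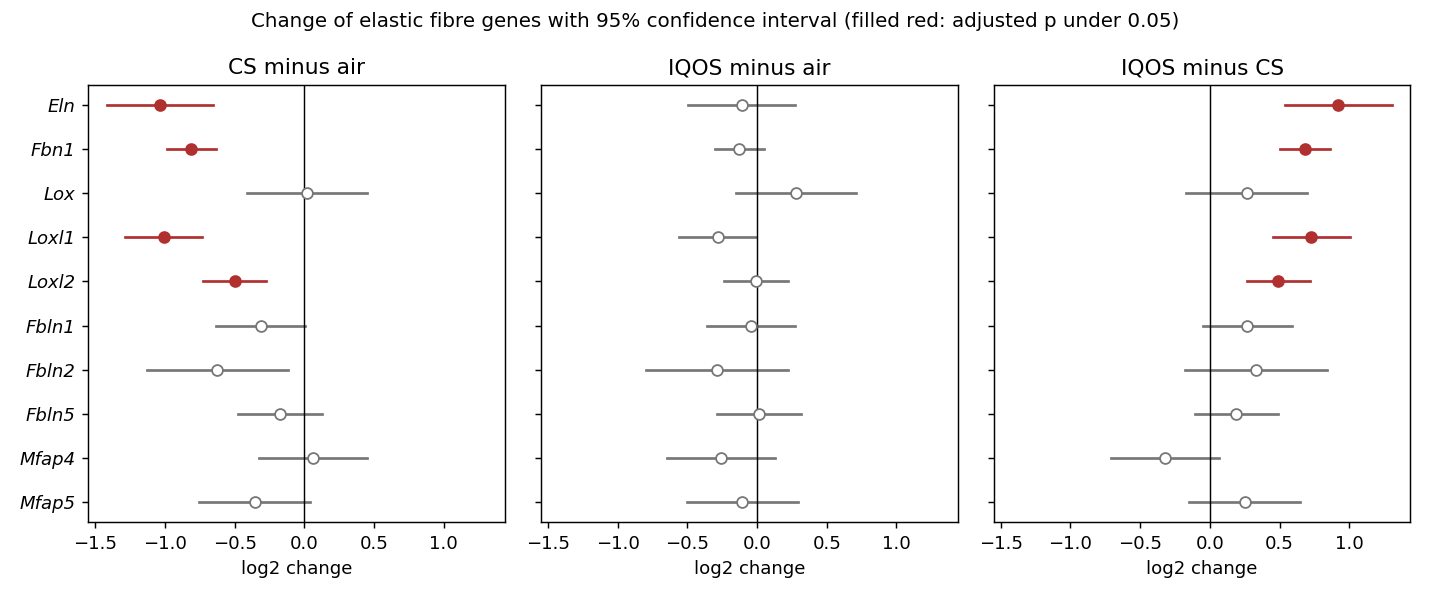
Log2 change of each of the 10 genes (points) with its 95% confidence interval (lines) in the panels CS minus air, IQOS minus air and, at the right, IQOS minus CS. Filled red points passed an adjusted p of 0.05 in limma: Eln, Fbn1, Loxl1 and Loxl2 in both panels with CS and none between IQOS and air.

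IQOS lungs were also set directly against CS lungs, although these arrays lay on different slides and in different rows, so that exposure cannot be told apart from array position here. Eln, Fbn1, Loxl1 and Loxl2 were higher in IQOS lungs and 0 were lower, where 10.1% of all genes were called, 4.94% higher and 5.18% lower. Eln was higher by 0.92 ± 0.17 (adjusted p 0.017), Loxl1 by 0.73 ± 0.12 (adjusted p 0.0127), Fbn1 by 0.68 ± 0.08 (adjusted p 0.0037) and Loxl2 by 0.49 ± 0.10 (adjusted p 0.024). The other probe of Fbn1 was also higher (0.50 ± 0.12, adjusted p 0.0389), while those of Eln (0.64 ± 0.21, adjusted p 0.096) and Loxl2 (0.32 ± 0.11, adjusted p 0.105) did not pass. The IQOS and CS levels of these 4 genes did not overlap, as held with IQOS higher for 18.5% of all genes. This comparison shares its CS arrays with the first, so it is no separate evidence that the CS level was low. Without CS 3 the Eln and Loxl2 calls ended (adjusted p 0.0524 and 0.0661), and that of Loxl2 ended also without CS 2, IQOS 1 or IQOS 2.

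The remaining 6 genes did not pass between IQOS and CS. Mfap4 was the only one of the 10 with a lower estimate in IQOS lungs, at 6.5, 5.73 and 5.66 against 8.56, 7.57 and 6.32 in CS lungs (-0.32 ± 0.17, adjusted p 0.258). Lox differed by 0.26 ± 0.19 (adjusted p 0.395), Fbln1 by 0.27 ± 0.14 (adjusted p 0.248), Fbln2 by 0.33 ± 0.22, Fbln5 by 0.19 ± 0.13 and Mfap5 by 0.25 ± 0.17. Eln, Fbn1, Loxl1 and Loxl2 were lowest in CS lungs. Between IQOS and air the levels of Eln and Loxl2 overlapped. Those of Loxl1 and of the brighter Fbn1 probe were lower on every IQOS array without passing the adjusted threshold. The other 6 genes passed in no comparison.

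Array row moved with these comparisons. With row as a covariate the CS minus air change rests on the CS arrays against air 3: Fbn1 kept its call (-0.74, adjusted p 0.0397), and Eln (-0.88, adjusted p 0.146), Loxl1 (-0.82, adjusted p 0.0664) and Loxl2 (-0.58, adjusted p 0.123) did not. Between IQOS and CS, which lay in different rows, 0 of the 10 genes passed in that fit, with Eln at 0.69, Fbn1 at 0.58, Loxl2 at 0.62 and Loxl1 at 0.45.

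**Figure D3:**
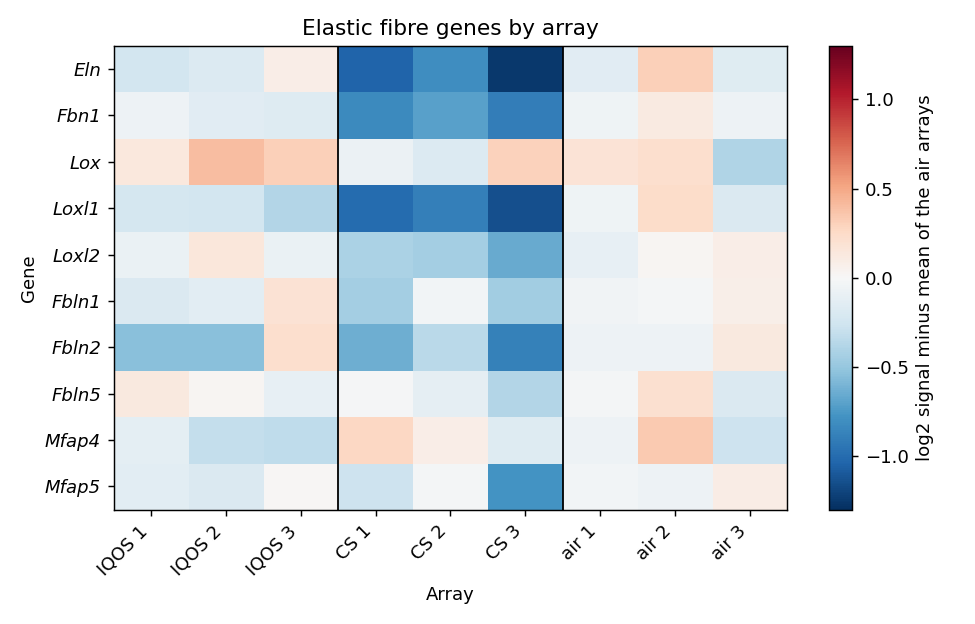
Log2 signal of each of the 10 genes minus the mean of its air arrays (colour, red above and blue below), by array, with IQOS, CS and air from left to right. Eln, Fbn1 and Loxl1 are the deepest blue in all CS arrays, CS 3 is above the air mean only for Lox, and IQOS 3 is above it for Eln, Fbln1, Fbln2 and, by 0.01, Mfap5, where IQOS 1 and IQOS 2 are below.

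The highest array of a group was not the same for every gene. In CS 2, 6 of the 10 genes were at the highest level of their group, and in air 2 also 6. IQOS 3 was the highest IQOS array for Eln, Fbln1, Fbln2 and Mfap5 and the lowest for Fbn1, Loxl1, Fbln5 and Mfap4. Fbln2 had the widest spread of the 10 genes (pooled SD 0.31 on the log2 scale). By root mean square difference of centred log2 profiles over the 9 arrays, the genes nearest to the mean profile of the 10 were Mccc1 (0.05), Fam114a1 (0.07), Gm14308 (0.07), Mxra8 (0.08) and Fam120c (0.08), among 16492 genes compared.

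Other genes of elastic fibre building were followed in a list of 39, of which 37 were tested. In CS lungs 6 fell and 1 rose relative to air, where 6.12% of all genes were called lower and 5.6% higher. The median was -0.20, against -0.02 over all genes. An unadjusted p under 0.05 was found for 17 of the 37. Over all 16593 genes between 3743 and 5365 had such a p, by the ranks of Fbln2 (p 0.0224 in limma) and Fbln1 (p 0.054). Efemp1, a fibulin, had levels of 18.1, 18.9 and 16.9 in CS lungs against 23.7, 23.2 and 24.4 in air lungs (-0.40 ± 0.07, adjusted p 0.0172). Mfap2, the abundant microfibril glycoprotein, had 9.82, 9.29 and 9.37 against 12.3, 11.8 and 11.2 (-0.31 ± 0.08, adjusted p 0.0475). Neither pair of groups overlapped.

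The perlecan gene Hspg2, a basement membrane proteoglycan, fell by 0.46 ± 0.11 (adjusted p 0.0386) and Emilin1, an elastin interface glycoprotein, by 0.40 ± 0.08 (adjusted p 0.0234). Adamts10, a microfibril-binding member of the ADAMTS protease family, fell by 0.40 ± 0.08 (adjusted p 0.0288) and the growth factor gene Tgfb3 by 0.32 ± 0.07 (adjusted p 0.0243). Tgfb1, whose protein is stored on microfibrils through latent binding proteins, rose by 0.24 ± 0.06 (adjusted p 0.0409), at 1.46, 1.41 and 1.5 in CS lungs against 1.27, 1.25 and 1.19 in air lungs. Efemp2, whose protein brings lysyl oxidase to elastin, stood at -0.06 (adjusted p 0.591), and the remaining lysyl oxidase genes Loxl3 and Loxl4 at -0.29 (adjusted p 0.194) and -0.40 (adjusted p 0.128). The count of 7 partner genes was 0 without air 1 or air 3, 1 without CS 2, 2 without air 2 or CS 1, 3 without CS 3, 4 without IQOS 2 and 0 with array row as a covariate.

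**Figure D4:**
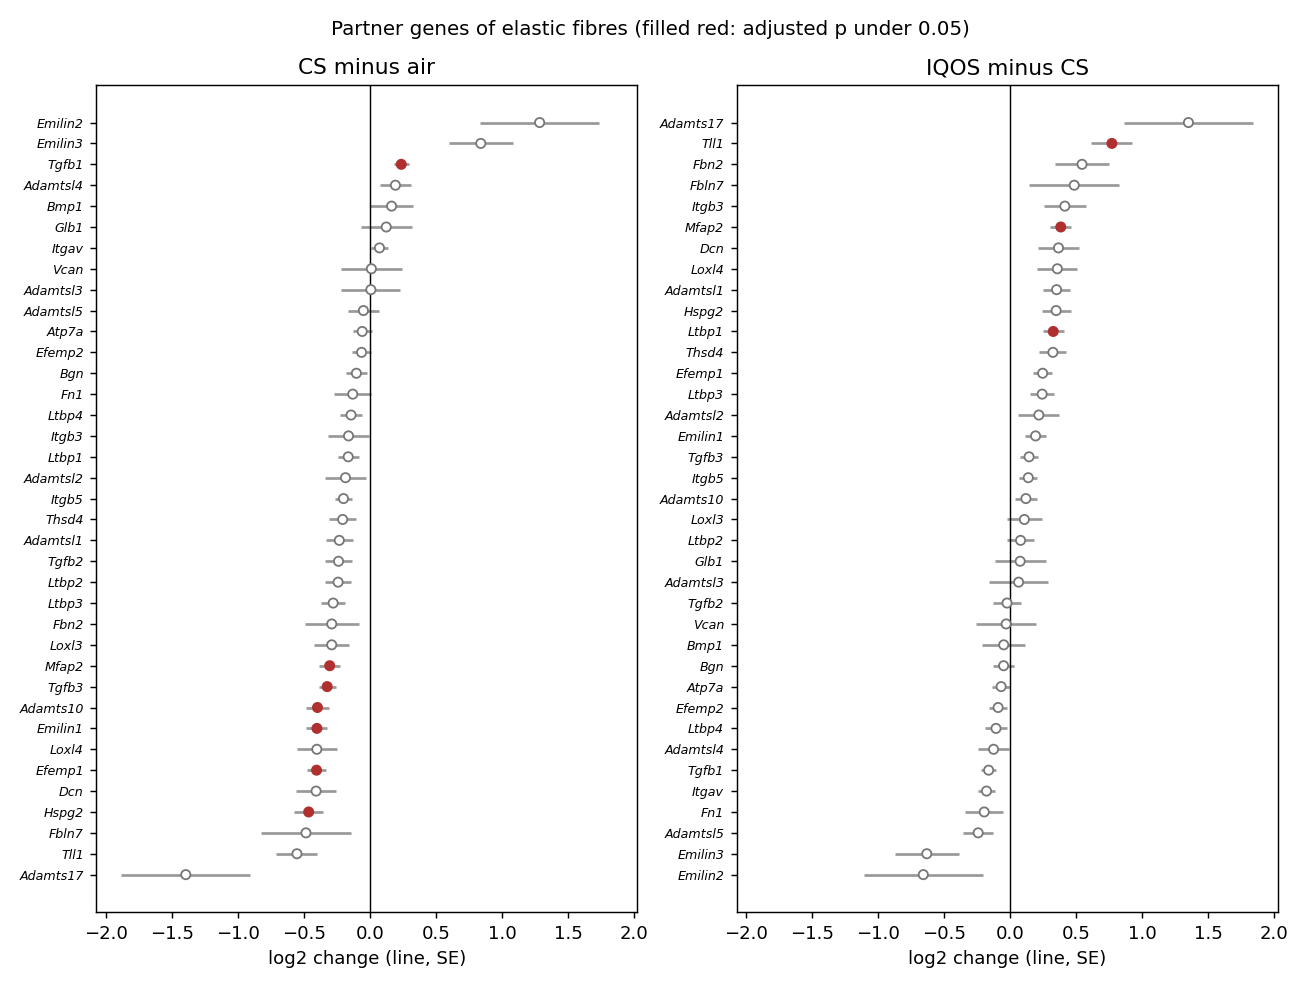
Log2 change (points) ± SE (lines) of the 37 tested partner genes for CS minus air and IQOS minus CS, each sorted by its change. Filled red points passed an adjusted p of 0.05 in limma. Between CS and air, 28 of the 37 estimates are below 0, and between IQOS and CS, 23 are above 0.

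Against air, IQOS lungs had 0 of 37 partner genes called in limma, with 7 at an unadjusted p under 0.05 and a median of -0.04. At least 3198 of all 16593 genes had an unadjusted p under 0.05 in this comparison, as Loxl1 held that rank (p 0.046 in limma). Between IQOS and CS 3 of the 37 were higher and 0 lower, where 4.94% of all genes were called higher and 5.18% lower, so the count is near that of all genes. The 3 were Tll1, a protease relative of the enzyme that activates lysyl oxidase (0.77 ± 0.16, adjusted p 0.0242), Mfap2 (0.38 ± 0.08, adjusted p 0.0252) and Ltbp1, a latent growth factor binding protein (0.33 ± 0.08, adjusted p 0.0437). The median was 0.12. The count was 0 without CS 2 or CS 3, and 1 without IQOS 1 or IQOS 2.

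Of 18 tested genes of elastin-cleaving proteases and their inhibitors, 6 rose and 1 fell in CS lungs, where 5.6% of all genes were called higher and 6.12% lower. The median was 0.22, against -0.02 over all genes. Ctsk, a collagen- and elastin-cleaving cathepsin, had levels of 24.2, 16.5 and 18.9 in CS lungs against 3.89, 4.31 and 5.51 in air lungs (2.12 ± 0.17, adjusted p 0.00193). The cathepsin genes Ctss and Ctsb rose by 0.72 ± 0.11 and 0.28 ± 0.05. Of the metalloproteinase inhibitor genes, Timp3 rose by 0.39 ± 0.07 and Timp2 fell by 0.27. The other calls were the elastase inhibitor Slpi (1.17 ± 0.30) and the protease Mmp7 (1.67 ± 0.39), which was well above background on only 2 of the 3 air arrays, so that the size of its change is uncertain. The macrophage elastase gene Mmp12 stood at 1.24 ± 0.40 without passing (adjusted p 0.0843). In IQOS lungs the 1 call against air was the neutrophil elastase gene Elane, at 1.18, 1.62 and 1.34 against 0.822, 0.796 and 0.785 (0.77 ± 0.11, adjusted p 0.0142). For CS minus air Elane stood at 0.10 (adjusted p 0.596). Prtn3 of the same list was lower on every IQOS array than on every air array without passing (-0.98, adjusted p 0.101). It was well above background on only 1 IQOS array. Against CS, IQOS lungs had 4 of these 18 genes lower and 1 higher, where 5.18% of all genes were called lower and 4.94% higher, with Ctsk at -2.04.

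Some markers of fibroblasts and smooth muscle cells, which make elastic fibres, were lower in CS lungs. Of 12 fibroblast markers 4 fell relative to air, namely Col1a1 (-0.93, adjusted p 0.012), Pdgfrb (-0.56), Col3a1 (-0.91) and Col1a2 (-0.64). The share of all genes called lower in CS was 6.12%, which also stands beside the other marker counts here. The summed level of the 12 ranged from 96.2 to 98.6 in IQOS lungs, 76.8 to 92.6 in CS lungs and 111 to 125 in air lungs. The IQOS sums thus also lay below all air sums. The brightest probes weigh most in such sums, here Col1a2 with a mean of 49.9 in air lungs, against 2.77 for Tcf21. Pdgfra and Tcf21, markers of alveolar fibroblasts, stood at -0.15 (adjusted p 0.444) and -0.08 (adjusted p 0.456). Pi16, a marker of adventitial fibroblasts, stood at 0.75 (adjusted p 0.202). Dpt (-0.38, adjusted p 0.0866) and Npnt (-0.31, adjusted p 0.18) of the same list were lower on every CS array than on every air array. None of these genes passed. Of the 12 estimates 11 were below 0 and 1 above, with a median of -0.36. Col1a2, Pdgfra, Tcf21, Pi16, Dpt and Npnt were chosen after their values were seen. Of 8 smooth muscle markers 2 fell, Lmod1 (-0.73, adjusted p 0.00408) and Des (-0.56). The 8 had sums of 86 to 108 in IQOS, 68.2 to 98.6 in CS and 111 to 125 in air lungs. Tagln and Acta2 weigh most there, with means of 41.6 and 38.5 in air lungs, against 0.075 for Lmod1. Of 7 chondrocyte markers 4 did not pass the filter on dim probes, and of the 3 others the cartilage collagen Col2a1 fell (-1.02, adjusted p 0.00589), while Comp stood at -0.60 (adjusted p 0.29) and Chad at 0.49 (adjusted p 0.25). Chad was also higher on every IQOS array than on every air array, without passing (1.04, adjusted p 0.0702). The 3 had sums of 1.32 to 1.7 in IQOS, 0.65 to 1.04 in CS and 0.897 to 1.17 in air lungs.

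Summed levels of immune cell markers were higher in every CS array than in every air array. Of 5 alveolar macrophage markers 3 rose, Cd68 (1.53, adjusted p 0.00174), Chil3 (1.36, adjusted p 0.0042) and Marco (3.05, adjusted p 0.0048), where 5.6% of all genes were called higher. Fabp4 was lower on every CS array than on every air array, without passing (-0.92, adjusted p 0.137). The 5 had sums of 139 to 161 in IQOS, 249.9 to 337 in CS and 122 to 143 in air lungs. Chil3 weighs most there, with a mean of 79.4 in air lungs. The 6 neutrophil markers had sums of 173 to 426 in IQOS, 329.6 to 739 in CS and 182 to 229 in air lungs, with 0 called in limma and 5 at an unadjusted p under 0.05 between CS and air. Among the other lists 1 of 6 endothelial markers fell (Tek, -0.43) and 1 of 6 alveolar type II markers rose (Sftpd, 0.39). The adjusted threshold was passed by 0 of 4 alveolar type I, 0 of 6 mesothelial, 0 of 8 cardiac muscle and 0 of 6 adipocyte markers. The last 2 lists still leaned lower in CS lungs than in air lungs. Adipocyte estimates were below 0 for 5 markers and above 0 for 1 (median -0.87), and cardiac estimates were below 0 for all 8 (median -0.50). Before adjustment, limma p fell below 0.05 for 5 adipocyte and 0 cardiac markers, and for between 3743 and 5365 of all 16593 genes. Mesothelial estimates were split, 3 below 0 and 3 above, and all 4 type I estimates were above 0 (median 0.03). Cardiac sums ranged from 209 to 315 in IQOS, 124 to 209.6 in CS and 168 to 315 in air lungs, and adipocyte sums from 27.3 to 45.3 in IQOS, 12.6 to 29.3 in CS and 29.1 to 46.3 in air lungs. Between IQOS and air 0 markers of any list passed. Against CS, 1 of 12 fibroblast (Col1a1), 1 of 8 smooth muscle (Lmod1) and 1 of 3 chondrocyte markers (Col2a1) were higher in IQOS lungs. Lower were 1 of 6 alveolar type II (Sftpd), 1 of 6 mesothelial (Krt19) and 3 of 5 macrophage markers. Of all genes 4.94% were called higher and 5.18% lower. The other 5 mesothelial estimates were above 0, and the median of that list was 0.21. The part of these cell types in the levels of the elastic fibre genes was not tested.

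**Figure D5:**
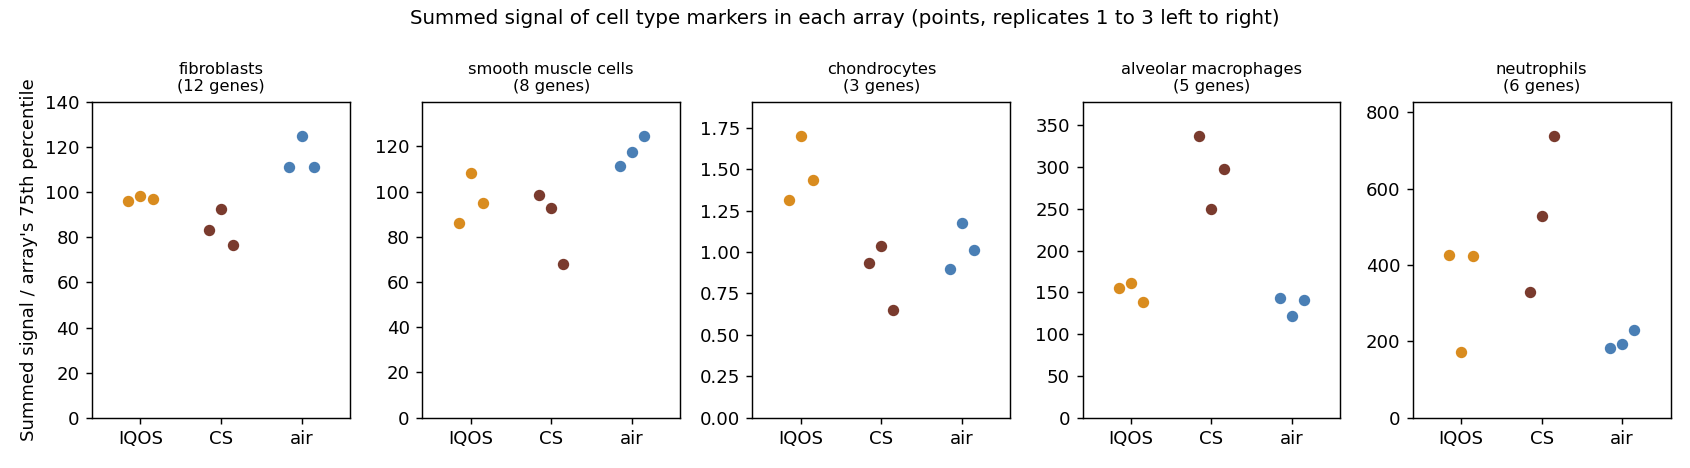
Summed signal of the tested markers of 5 cell types, as multiples of the 75th percentile of the array (vertical axis, linear, from 0), in the 3 IQOS, 3 CS and 3 air arrays (points). CS arrays lie below the air arrays for fibroblasts and smooth muscle cells and above them for alveolar macrophages and neutrophils. The brightest markers weigh most in each sum.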

How the data were processed

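The deposited intensities are processed signals of Agilent Feature Extraction 10.7.1.1 (per the submitters' processing notes and the file headers), background-subtracted and detrended within each array. RNA was extracted with miRNeasy kits and labelled with Cy3, per the labels' protocols. The deposited series matrix holds a ratio to the 75th percentile of each array, a scale found by setting it against the scanner signals. Its column medians are 0.12 in each IQOS array, 0.12, 0.118 and 0.117 in CS 1 to 3 and 0.114, 0.116 and 0.121 in air 1 to 3, with no centring of genes. Outlier spots were left out, spots of 1 probe were averaged on the log2 scale and the log2 of the 75th percentile was subtracted. Testing required values on 2 or more arrays in each group and, in some group, a signal well above background wherever there was a value. This kept 37258 of 56605 probes. SystematicName accessions were matched to RefSeq genes, which named 32994 probes (58.3%). Median spot and background signals served the normexp alternative.

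The 3 contrasts were fitted over all 9 arrays with limma 3.58.1 (lmFit and eBayes) in R 4.3.3, and the fit was tested on simulated data. Named genes are the 10 genes in every comparison, up to 8 called partners a direction, up to 4 called protease or inhibitor genes a direction, up to 3 genes of a marker list and the 5 nearest in profile. Any other gene was named after its values were seen. The genes and lists were chosen with earlier results of these data known. The settings varied were the background correction (normexp, offset 50), quantile normalization, median centring, other filters, the series matrix, a trend with robust eBayes, the replicate block, array row, the mean of a gene's probes, only the arrays compared, and each array left out. Signal over background and the number of arrays limit precision.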

Additional observations from a re-analysis of the deposited data

How the results depend on the processing

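The counts of called elastic fibre genes (4 lower for CS minus air, 0 for IQOS minus air, 4 higher for IQOS minus CS) moved by more than 1.5 times only with array row as a covariate, to 1 for CS minus air and 0 for IQOS minus CS, and when arrays were left out. Leaving out each array gave 3 to 5 for CS minus air, 0 to 0 for IQOS minus air and 2 to 4 for IQOS minus CS, the 2 without CS 3. The partner genes were less stable. For CS minus air 7 were called, 1 without a filter on dim probes, 0 with array row and 0 to 8 with an array left out. For IQOS minus air 0 were called, 3 with normexp and 0 to 0 with an array left out. For IQOS minus CS 3 were called, 0 without the filter, 0 with array row, 1 with only the arrays compared and 0 to 2 with an array left out. The causes were not tested.

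Estimates changed sign only for genes without a call. For IQOS minus air Loxl2 was 0.083 and Fbln1 0.016 with normexp, Fbln5 -0.017 with median centring, and Loxl2 0.033 and Fbln5 -0.076 with array row. With array row Fbln5 was 0.011 for CS minus air and -0.087 for IQOS minus CS, where Lox was -0.32. With an array left out, ranges that crossed 0 were, for CS minus air, -0.18 to 0.12 for Lox and -0.071 to 0.23 for Mfap4, and for IQOS minus air -0.089 to 0.033 for Loxl2, -0.16 to 0.029 for Fbln1, -0.076 to 0.12 for Fbln5 and -0.21 to 0.043 for Eln. Fbn1 kept its CS minus air call in all 20 alternatives (adjusted p at most 0.0397), Eln and Loxl1 in 19 and Loxl2 in 13. Without the filter Loxl2 missed the threshold in both contrasts (adjusted p 0.0533 and 0.0544), where more probes were tested.

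Deviations of same-numbered arrays correlated between -0.08 and 0.20, and those of differently numbered arrays between -0.25 and 0.12. For IQOS and air the same-numbered pairs were all positive (0.08, 0.20 and 0.17) and the others all negative. For CS and air the same-numbered pairs were all negative. With 3 arrays a group these values cannot decide whether the replicate numbers pair the arrays. With the replicate block the calls were 4, 0 and 4 of the 10 genes and 7, 0 and 4 of the partners in the order CS against air, IQOS against air, IQOS against CS. Over all genes the median change stayed within 0.1 (log2) of 0 in every setting run. The 3 arrays a group limit every value.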
